A study of Mus musculus with 12 samples.

Results

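The proteasome is the multi-subunit protease that degrades most ubiquitin-tagged proteins of the cell, and its genes were followed here in mouse adipose tissue. The members are the genes whose array symbol begins with Psma to Psmg and a number, 50 in all among 18194 genes before a filter on low signal. Of these, 48 are genes of the proteasome or of its assembly. The other two, Psmc3ip and Psme3ip1, carry names derived from a proteasome gene and are not subunits. Psmb8, Psmb9, Psmb10, Psme1, Psme2 and Psme4 were singled out with their differences in these same arrays already known. Their values are therefore a description and carry no test.

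RNA was measured in 12 samples of C57Bl/6 adipose tissue, each on 1 Affymetrix array. The 12 arrays fall into 3 groups of 4. The control group stayed on chow, in which fat gives 13% of the calories. The other mice ate the same chow until 6 weeks of age and then a high-fat diet (HFD) with 46% of calories from fat for 5 or for 14 days. The fat depot is not given in the sources used here, nor is the age at which control mice were sampled, so a difference in age between groups cannot be told apart from diet. The labels call the samples replicates without saying that each came from its own animal, so errors measure the spread between these samples.

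In background, the catalytic core of the proteasome, the 20S particle, is a stack of rings of alpha and beta subunits, and 3 beta subunits, Psmb5, Psmb6 and Psmb7, cut peptide bonds. Interferon and immune cell types bring in replacements for each: Psmb8 for Psmb5, Psmb9 for Psmb6 and Psmb10 for Psmb7, which together make the immunoproteasome. The 19S particle of Psmc ATPases and Psmd subunits binds and unfolds ubiquitin-tagged proteins. Other caps are PA28, of Psme1 and Psme2, which is also induced by interferon, PA28 gamma (Psme3) in the nucleus, and PA200 (Psme4), known from chromatin and from the degradation of acetylated histones. In adipose tissue immunoproteasome subunits are known from immune cells as well as from other cells.

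Values are log2 signals of each gene's brightest probe set by its mean in the 12 arrays, so a difference of 1 is a doubling. Of the 48 proteasome genes 46 passed the signal filter at 7.64. Psma8, an alpha subunit known from testis, stood between 6.76 and 7.10, and Psmb11, a catalytic subunit known from thymus, between 6.05 and 6.42. Both lay below the filter and were not tested. Psme2 had no probe set of its own. Its only probe set is annotated to Psme2 and to Psme2b, a near-identical copy, and which of them it measured is uncertain.

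The tissue label was met by its defining marker, with the adipocyte gene Adipoq between 14.90 and 15.05 in every array. Some arrays also gave high signals for markers of another tissue, the epididymis. The mean of 4 epididymis markers stood at 11.02 to 11.86 in 5-day arrays 1 to 3 and at 13.28 in 14-day array 4, against 7.27 to 8.50 in the other 8 arrays. Of 8 markers listed, Lcn8, Lcn9, Rnase10 and Cst11 lay below the filter and reached no more than 7.24 in any array. The filter used the mean of all 12 arrays, so high values in some arrays helped a marker pass it. Of the 4 that passed, Defb15 was high in 14-day array 4 alone, at 9.74 against 8.10 to 8.65 elsewhere. Array 4 of the 14-day group also had the lowest mean of 12 macrophage markers (9.93, against 10.70 to 11.37 elsewhere) and of 9 adipocyte markers (13.87, against 14.10 to 14.25). RNA quality, read from the gap in log2 signal between the 3′ and 5′ controls for pyruvate carboxylase, set 5-day array 4 apart at 2.83, where the other arrays had 1.59 to 2.18.

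The catalytic immunoproteasome subunits stood lower on HFD. Psmb8 was 1.34-fold lower after 5 days and 1.47-fold lower after 14 days, and Psmb9 was 1.35-fold and 1.42-fold lower. Psmb10 was 1.21-fold and 1.17-fold lower. Psme4 was the opposite, 1.27-fold and 1.26-fold higher. The PA28 genes and the constitutive subunits lay within 0.23 log2 units of chow at both times.

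The sequences before the start sites of Psmb8, Psmb9, Psmb10 and Psme4 are shown with those of Psme1 and of the constitutive partner Psmb5. Interferon- and stress-responsive elements in such stretches are the textbook route of proteasome gene regulation. The sequences shown are the 200 bases upstream of the start site from RefSeq, build GRCm38.p6, 5′ to 3′ on the strand of the gene. Capitals mark matches, on either strand, to the interferon-stimulated response element core (GAAA, then NN, then GAAA), the interferon gamma-activated site (GAS) core TTCNNNGAA, the antioxidant response element core TGACNNNGC or the CCAAT box.
Psmb8, chr17:34197995-34198194, plus strand: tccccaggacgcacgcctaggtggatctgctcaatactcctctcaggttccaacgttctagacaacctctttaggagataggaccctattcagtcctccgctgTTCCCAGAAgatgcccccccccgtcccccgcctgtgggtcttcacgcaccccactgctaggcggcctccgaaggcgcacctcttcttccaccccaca
Psmb9, chr17:34187331-34187530, minus strand: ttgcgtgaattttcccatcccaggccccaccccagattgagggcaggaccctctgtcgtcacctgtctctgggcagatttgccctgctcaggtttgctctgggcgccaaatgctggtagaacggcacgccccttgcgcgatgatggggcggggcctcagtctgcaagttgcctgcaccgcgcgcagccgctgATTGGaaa
Psmb10, chr8:105938393-105938592, minus strand: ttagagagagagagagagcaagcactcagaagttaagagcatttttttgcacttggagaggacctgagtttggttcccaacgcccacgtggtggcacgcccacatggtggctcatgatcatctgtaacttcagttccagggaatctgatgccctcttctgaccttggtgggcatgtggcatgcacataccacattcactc
Psme1, chr14:55578294-55578493, plus strand: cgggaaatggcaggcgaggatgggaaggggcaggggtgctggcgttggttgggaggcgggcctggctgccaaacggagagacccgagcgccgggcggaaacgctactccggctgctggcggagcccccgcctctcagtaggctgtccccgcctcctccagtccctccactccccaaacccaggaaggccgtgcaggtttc
Psme4, chr11:30771575-30771774, plus strand: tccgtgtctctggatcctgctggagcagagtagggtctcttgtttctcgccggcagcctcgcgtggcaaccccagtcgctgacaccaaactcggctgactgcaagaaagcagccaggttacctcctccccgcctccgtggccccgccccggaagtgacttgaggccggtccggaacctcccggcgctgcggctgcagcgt
Psmb5, chr14:54617996-54618195, minus strand: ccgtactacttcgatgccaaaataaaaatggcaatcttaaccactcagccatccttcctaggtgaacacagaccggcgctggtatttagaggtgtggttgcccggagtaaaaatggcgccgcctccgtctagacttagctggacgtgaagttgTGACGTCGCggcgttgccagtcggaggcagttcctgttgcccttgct

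Psmb8 held a GAS core, TTCCCAGAA, at 97 to 89 bases before its start. Psmb5 held an antioxidant response element core, TGACGTCGC, at 47 to 39 bases before its start, and Psmb9 an inverted CCAAT box at 8 to 4 bases. None of these letters were found in the printed stretches of Psmb10, Psme1 and Psme4. Promoters were found for 40 of the 48 genes, in 43 windows. Within 250 bases upstream the GAS core occurred in 2 of the 43 windows (4.65%), against 7.02% of all 32851 promoters. The corresponding shares were 6.98% against 2.98% for the interferon-stimulated response element (Psmb3, Psmd4 and Psmd9), 11.6% against 10.2% for the antioxidant response element and 32.6% against 33.8% for the CCAAT box. No matches of different motifs overlapped. A match is a description of letters, and the arrays hold no measurement of binding.

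Psmb8 (also called LMP7), the immunoproteasome subunit with chymotrypsin-like activity, stood at 10.30, 10.46, 10.75 and 10.72 in chow arrays 1 to 4. It stood at 10.15, 10.05, 10.07 and 10.28 after 5 days and at 10.08, 10.22, 9.94 and 9.76 after 14 days. All 8 HFD arrays lay below all chow arrays, although the highest of them, 5-day array 4, was only just under chow array 1. The log2 difference from chow was −0.42 ± 0.12 (SE) at 5 days and −0.56 ± 0.12 at 14 days. A second Psmb8 probe set lay below the filter with a mean of 6.01 and differed by −0.07 and −0.09, with overlapping groups.

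Psmb9 (LMP2), which replaces Psmb6, stood at 9.95, 10.09, 10.33 and 10.29 in chow arrays 1 to 4. It stood at 9.73, 9.65, 9.70 and 9.84 after 5 days and at 9.83, 9.90, 9.58 and 9.34 after 14 days. Again no HFD array reached the lowest chow array. The difference was −0.44 ± 0.13 at 5 days and −0.50 ± 0.13 at 14 days, from chow at 10.17 ± 0.18 (SD, n = 4).

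Psmb10 (MECL-1), which replaces Psmb7, stood at 10.72, 10.81, 10.97 and 10.88 in chow arrays 1 to 4. It stood at 10.59, 10.52, 10.47 and 10.69 after 5 days, all below chow, and at 10.78, 10.71, 10.70 and 10.26 after 14 days. The 14-day arrays overlapped chow, and array 4 stood far below the other 3. The difference was −0.28 ± 0.11 at 5 days and −0.23 ± 0.11 at 14 days, and the latter was −0.12 without 14-day array 4.

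**Figure D1:**
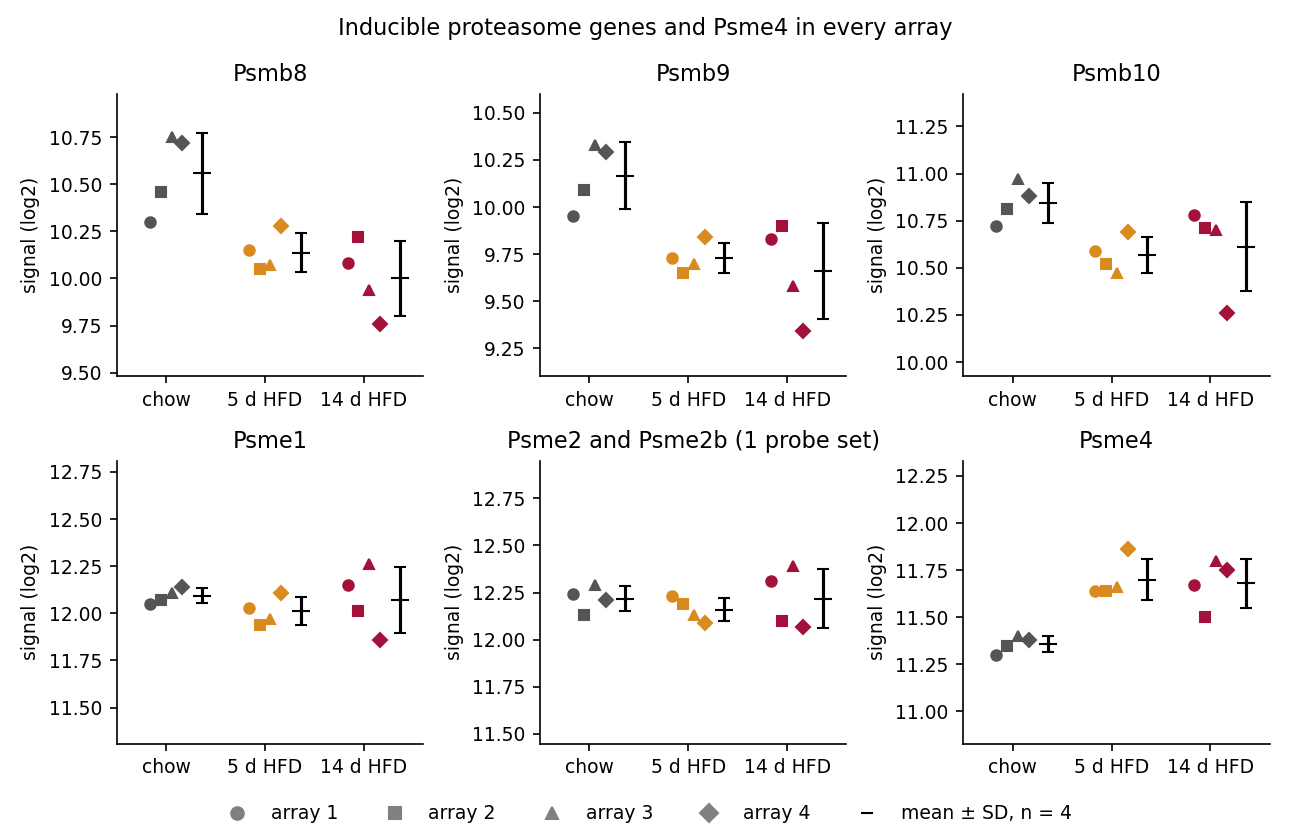
Log2 signal (vertical axis, each panel spanning the same width) of 6 proteasome genes in chow, 5-day and 14-day HFD arrays (horizontal axis); each symbol is 1 array, numbered as in the key, and bars give the mean and SD of 4 arrays. Psmb8 and Psmb9 were lower in all 8 HFD arrays than in any chow array, Psme4 was higher in all 8, and Psme1 and the probe set shared by Psme2 and Psme2b overlapped chow.

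In the deposited values of all 12 arrays the PA28 genes did not share this separation. Psme1, the alpha chain, stood at 12.05, 12.07, 12.11 and 12.14 in chow arrays 1 to 4, at 12.03, 11.94, 11.97 and 12.11 after 5 days and at 12.15, 12.01, 12.26 and 11.86 after 14 days. Its differences were −0.08 ± 0.08 and −0.02 ± 0.08. At 5 days Psme1 did lie wholly below chow in quantile-normalized arrays, and also when 5-day array 4 was left out. The probe set shared by Psme2, the beta chain, and Psme2b stood at 12.24, 12.13, 12.29 and 12.21 in chow, at 12.23, 12.19, 12.13 and 12.09 after 5 days and at 12.31, 12.10, 12.39 and 12.07 after 14 days. Its groups overlapped at both times, with differences of −0.06 ± 0.08 and −0.00025 ± 0.08. Over the 5 genes of the immunoproteasome and PA28 the median difference was −0.28 at 5 days and −0.23 at 14 days, against −0.0015 and 0.0155 over all 13312 genes tested. Each median of the 5 genes is the value of Psmb10. These 5 genes were singled out on these same values, so nothing is read from their contrast with all genes.

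Set against Psme1 array by array, each subunit kept its lower value. The log2 ratio of Psmb8 to Psme1, relative to its chow mean, was −0.34, −0.35, −0.36 and −0.29 in 5-day arrays 1 to 4 and −0.53, −0.26, −0.78 and −0.56 in 14-day arrays 1 to 4. In chow it ran from −0.22 to 0.17, so neither HFD group overlapped it. For Psmb9 the ratio to Psme1 was −0.35 ± 0.01 after 5 days and −0.48 ± 0.25 after 14 days (SD, n = 4), again without overlap, although 14-day array 2 and chow array 1 both round to −0.18. For Psmb10 it was −0.20 ± 0.04 and −0.21 ± 0.14, and only the 5-day group was separate from chow.

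The constitutive counterparts moved little. Psmb5 stood at 11.89, 11.96, 11.96 and 11.87 in chow arrays, at 12.13, 12.06, 11.94 and 12.00 after 5 days and at 11.99, 11.90, 12.18 and 11.93 after 14 days. The 3 groups overlapped, with differences of 0.12 ± 0.07 and 0.08 ± 0.07. Psmb6 stood at 11.87, 11.82, 11.88 and 11.85 in chow, at 11.85, 11.80, 11.80 and 11.81 after 5 days and at 11.91, 11.73, 11.94 and 11.82 after 14 days, with differences of −0.04 ± 0.05 and −0.00375 ± 0.05.

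Psmb7 stood at 13.15, 13.00, 13.05 and 13.03 in chow, at 13.24, 13.21, 13.13 and 13.09 after 5 days and at 13.24, 12.91, 13.36 and 12.99 after 14 days. Its 14-day arrays lay on both sides of chow, and its differences were 0.11 ± 0.09 and 0.07 ± 0.09.

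The mean ratio of each replacement to its partner was lower than in chow at both times. The log2 ratio of Psmb8 to Psmb5, relative to the chow mean, was −0.53 ± 0.13 after 5 days and −0.64 ± 0.26 after 14 days (SD, n = 4), with no overlap with chow in either group. For Psmb9 to Psmb6 it was −0.40 ± 0.08 and −0.50 ± 0.30, and 14-day array 2, at −0.14, lay inside the chow range. For Psmb10 to Psmb7 it was −0.39 ± 0.14 and −0.30 ± 0.24, and 5-day array 4 and 14-day array 2, at −0.18 and 0.01, lay inside that range.

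**Figure D2:**
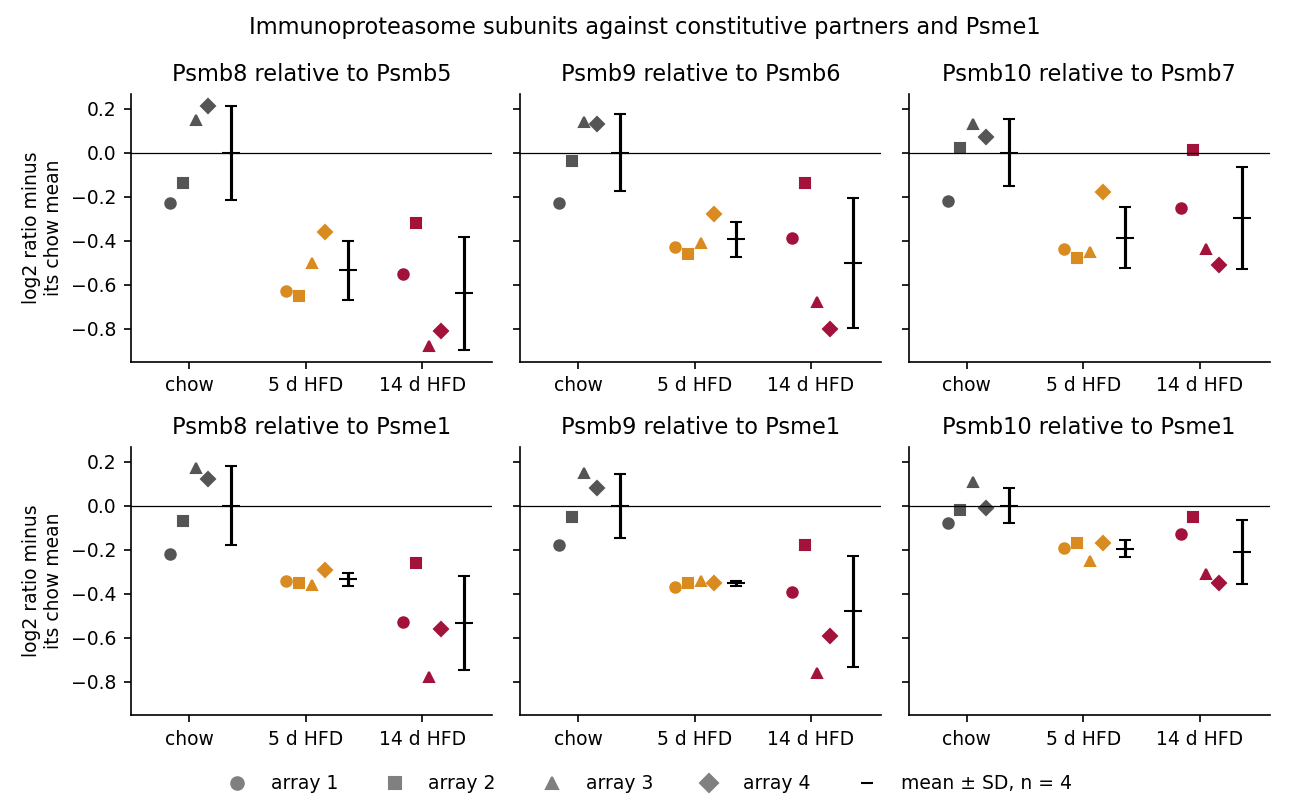
Log2 ratio of each immunoproteasome subunit to its constitutive partner (upper row) and to Psme1 (lower row), minus the chow mean of that ratio (vertical axis), in 3 groups (horizontal axis); each symbol is 1 array and bars give the mean and SD of 4 arrays. The Psmb8 ratios lie below every chow array in both HFD groups, while those of Psmb10 to Psmb7 overlap chow.

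Psme4, the PA200 cap, stood at 11.30, 11.35, 11.40 and 11.38 in chow arrays 1 to 4. It stood at 11.64, 11.64, 11.66 and 11.86 after 5 days and at 11.67, 11.50, 11.80 and 11.75 after 14 days. All HFD arrays were above all chow arrays, and 5-day array 4 was the highest. The difference was 0.35 ± 0.07 at 5 days and 0.33 ± 0.07 at 14 days.

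Other probe sets of Psme4 gave further readings of the same arrays. The 2 others above the filter differed by 0.39 and 0.28 at 5 days, where all arrays lay above chow. At 14 days they differed by 0.36 and 0.25, and the lowest 14-day array, at 11.04 and 10.79, reached into the chow ranges of 10.98 to 11.06 and 10.77 to 10.97. The 3 dim probe sets, with means of 6.19 to 7.15, differed by −0.10 to 0.16 and overlapped chow. Psme3, the gamma cap of the same Psme naming series, stood at 10.12, 10.11, 9.90 and 9.93 in chow, at 10.04, 10.06, 10.03 and 10.01 after 5 days and at 10.12, 9.98, 10.23 and 9.97 after 14 days. Its groups overlapped, with differences of 0.02 ± 0.07 and 0.06 ± 0.07.

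Separation of groups was read against its share among all genes. At 5 days 3 of 46 members (Psmb8, Psmb9 and Psmb10) had all HFD arrays below all chow arrays, as did 4.77% of the 13312 genes, and 1 (Psme4) had all above, as did 6.49%. At 14 days 2 (Psmb8 and Psmb9) were below, as were 2.26% of genes, and 3 (Psmc2, Psme4 and Psmg3) were above, as were 2.37%. The 6 genes of the rule were chosen on these values, so nothing is read from the counts.

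The counts depended on single arrays, on scaling and on the choice of probe set. Leaving out an array can only keep or raise them. At 5 days, 6 were below without chow array 2 or 5-day array 1 and 7 without 5-day array 4. The number above went to 2 without chow array 3 or 4 or 5-day array 2, to 3 without chow array 1 or 5-day array 4 and to 4 without 5-day array 3. At 14 days, 4 were below without chow array 1 and 9 were above without 14-day array 2. In median-centred arrays Psmb8 and Psmb10 overlapped chow at 5 days and Psmb9 did not. With all probe sets of a gene averaged, dim ones included, Psmb8 overlapped chow at both times and Psme4, Psmc2 and Psmg3 at 14 days.

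By limma with Benjamini-Hochberg adjustment over all genes, 0 of the 46 members were called in any comparison, and 0% of all genes were (lowest adjusted p = 0.248 at 5 days and 0.362 at 14 days). At unadjusted p under 0.05 stood 4 members at 5 days, 1 higher and 3 lower, against 4.43% and 5.67% of all genes (10.1% in either direction). At 14 days 5 did, 3 higher and 2 lower, against 3.67% and 4.3% (7.97%). Those at 5 days were Psme4, Psmb8, Psmb9 and Psmb10, and those at 14 days Psme4, Psmb8, Psmb9, Psma5 and Psmc2. All but Psma5 and Psmc2 were singled out on these values, so nothing is read from these counts either.

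**Figure D3:**
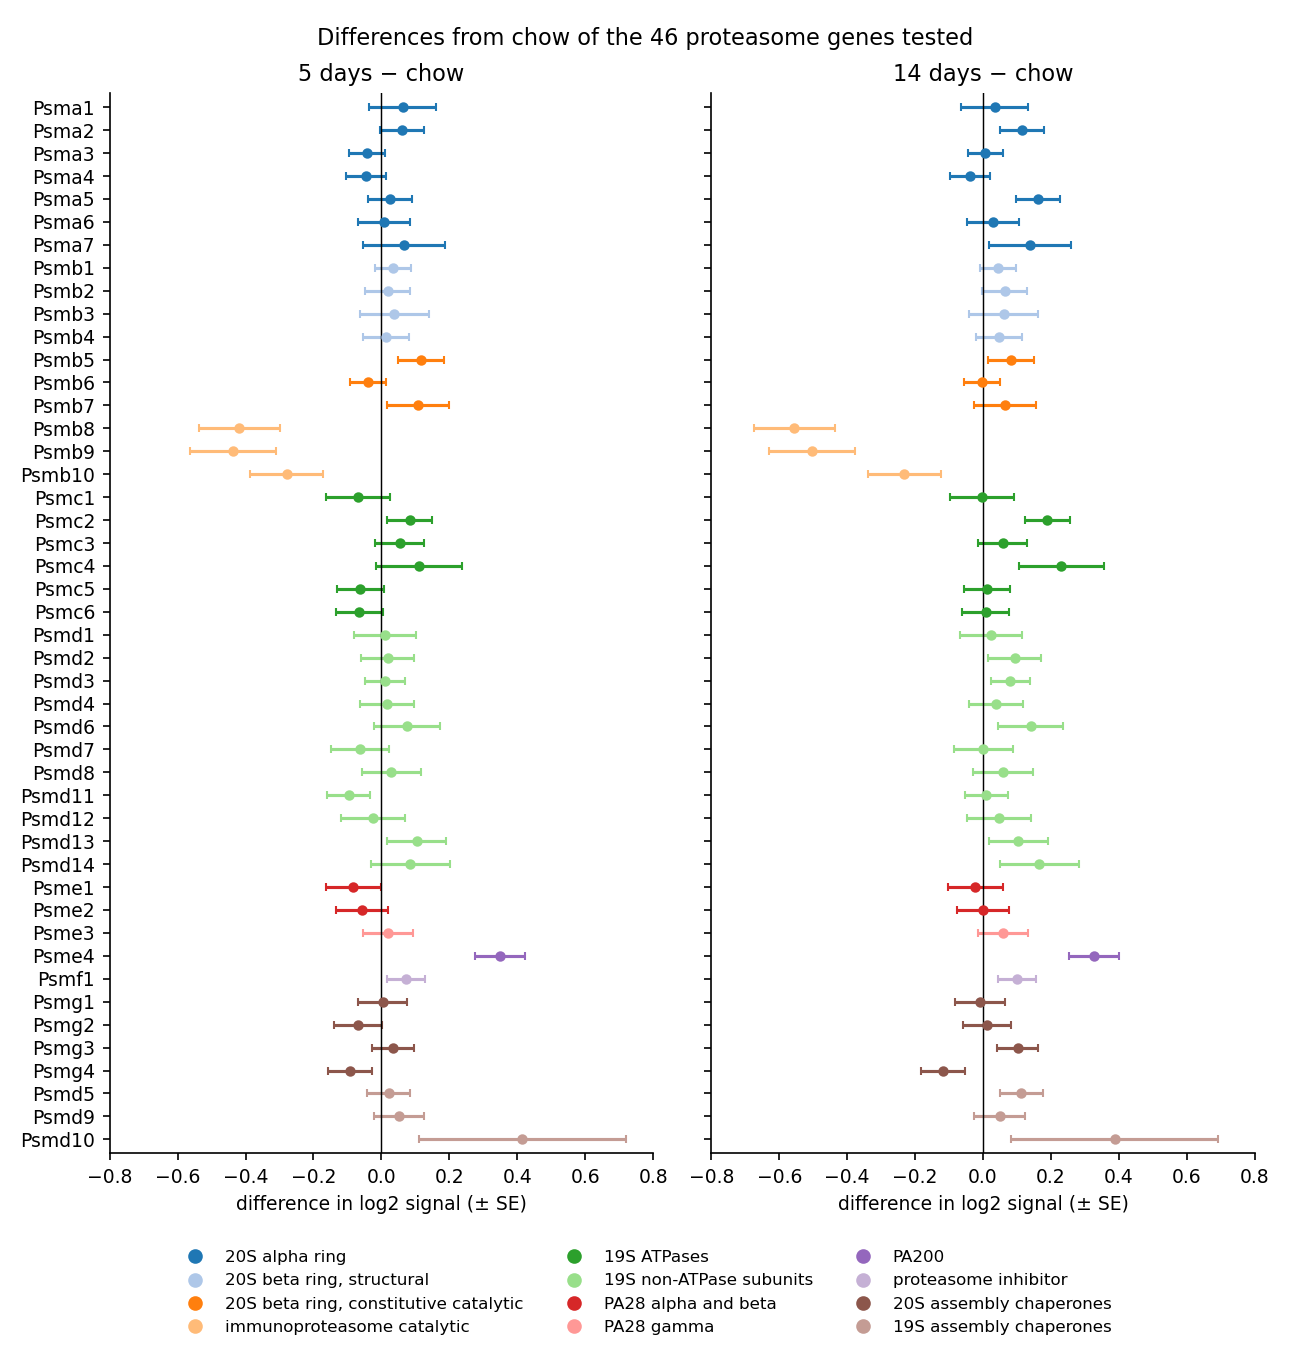
Difference in log2 signal from chow (horizontal axis) for each of the 46 proteasome genes tested (vertical axis), after 5 days (left) and 14 days (right) of HFD, coloured by role, with Psme2 standing for the probe set it shares with Psme2b; points are limma estimates and bars their SE. Psmb8, Psmb9 and Psmb10 lie to the left and Psme4 and Psmd10 to the right, with the wide bar of Psmd10, while the 31 constitutive 20S and 19S subunits lie between −0.10 and 0.23.

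The 31 constitutive 20S and 19S subunits lay close to chow. At 5 days 22 were above 0 and 9 below, with a median difference of 0.02 and a range of −0.10 to 0.12, where 49.5% of all genes were above 0 and 50.4% below. At 14 days 28 were above 0 and 3 below, with a median of 0.06 and a range of −0.04 to 0.23, where 55.2% of all genes were above 0 and 44.8% below. This balance depended on scaling: in quantile-normalized arrays 12 of 31 were above 0 at 5 days and 18 of 31 at 14 days. SEs ran from 0.05 to 0.13. By limma 0 of 31 were called, with 0 at an unadjusted p under 0.05 at 5 days and 2 higher at 14 days, Psma5 and Psmc2, where 3.67% of all genes were.

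Their direction was also uneven among 14-day arrays. The mean over the 31 subunits was 12.14, 11.93, 12.23 and 11.97 in 14-day arrays 1 to 4, against 11.98 to 12.02 in chow and 11.97 to 12.06 after 5 days. Array 3 was the highest of the 14-day arrays for 26 of the 31 subunits, and array 2 or 4 was the lowest for 31 of 31 (18 and 13). The median SD of a subunit within the group was 0.039 in chow, 0.060 in the 5-day and 0.151 in the 14-day arrays, against 0.085, 0.124 and 0.160 over all genes.

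In the alpha ring, which gates entry to the core, Psma5 had the largest 14-day difference. It stood at 12.31, 12.22, 12.23 and 12.34 in chow, at 12.33, 12.24, 12.29 and 12.34 after 5 days and at 12.50, 12.26, 12.56 and 12.44 after 14 days. Array 2 kept the 14-day group from lying above chow, and the difference was 0.16 ± 0.07. A second probe set above the filter differed by 0.08. Of the 7 alpha genes tested 6 were above 0 at 14 days, and Psma4 was below at −0.04 ± 0.06.

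Among the structural beta subunits Psmb1 to Psmb4 all 4 lay between 0.05 and 0.06 above chow at 14 days. Psmb2 had the largest difference, at 11.57, 11.55, 11.54 and 11.47 in chow, 11.58, 11.57, 11.49 and 11.56 after 5 days and 11.68, 11.46, 11.74 and 11.51 after 14 days. Its 3 groups overlapped, and its 14-day difference was 0.06 ± 0.07.

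Among the 19S ATPases, the ring of motors that unfolds substrates, Psmc4 had the largest 14-day difference. It stood at 10.91, 11.02, 11.08 and 11.13 in chow, at 11.24, 10.89, 11.12 and 11.33 after 5 days and at 11.35, 11.07, 11.58 and 11.06 after 14 days. Groups overlapped, with a difference of 0.23 ± 0.13, and its second probe set differed by 0.09. Psmc2 was the 1 constitutive subunit whose 14-day arrays, from 12.49 to 12.73, all lay above chow, from 12.37 to 12.42. Its difference was 0.19 ± 0.07, against 0.04 and −0.06 at its 2 other probe sets, both above the filter and both overlapping chow.

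Among the 19S subunits without ATPase activity Psmd14, the enzyme that removes ubiquitin from substrates, had the largest 14-day difference, 0.17 ± 0.12. It stood at 12.14, 12.00, 12.00 and 12.03 in chow, at 12.19, 12.10, 12.01 and 12.20 after 5 days and at 12.36, 12.01, 12.53 and 11.93 after 14 days. Arrays 1 and 3 of the 14-day group were high and arrays 2 and 4 were in the chow range or below it. The 11 genes of this group differed by 0.00 to 0.17 at 14 days.

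Helpers and the inhibitor lay close to chow too, apart from Psmd10. Psmg4, a chaperone of 20S assembly, stood at 9.63, 9.82, 9.76 and 9.76 in chow, at 9.74, 9.67, 9.60 and 9.59 after 5 days and at 9.67, 9.61, 9.50 and 9.72 after 14 days, a difference of −0.12 ± 0.07 at 14 days with overlapping groups. Psmg3, its partner in assembly, had 14-day arrays from 9.14 to 9.24, just above chow at 8.97 to 9.14. Psmf1 (PI31), named as an inhibitor of the core, stood at 10.14, 10.11, 10.12 and 10.03 in chow, at 10.18, 10.20, 10.17 and 10.14 after 5 days and at 10.29, 10.07, 10.23 and 10.22 after 14 days, a 14-day difference of 0.10 ± 0.06. The other Psmf1 probe sets above the filter each differed by 0.21 at 14 days and overlapped chow. The rule's 2 genes outside the proteasome differed little: Psmc3ip by −0.10 ± 0.07 and Psme3ip1 by 0.07 ± 0.06 at 14 days.

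Psmd10 (gankyrin), a chaperone of 19S assembly, varied most of all members. It stood at 9.37, 9.64, 9.45 and 9.48 in chow, at 10.13, 9.94, 10.26 and 9.27 after 5 days and at 9.61, 9.43, 9.55 and 10.90 after 14 days. The 4 high arrays were the 4 with high epididymis markers, and in the other 8 it stood between 9.27 and 9.64. The difference was 0.42 ± 0.31 at 5 days and 0.39 ± 0.31 at 14 days. With the mean of those markers as a covariate it was −0.16 and 0.12, and without those 4 arrays −0.21 and 0.04.

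**Figure D4:**
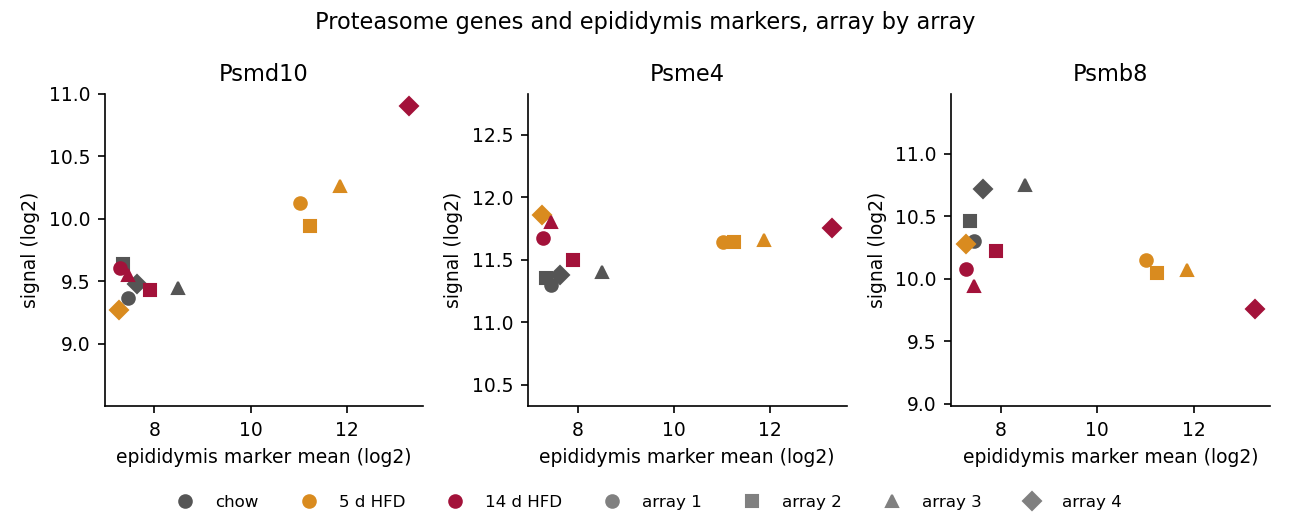
Log2 signal of Psmd10, Psme4 and Psmb8 (vertical axis, each panel spanning the same width) against the mean log2 signal of 4 epididymis markers (horizontal axis) in 12 arrays; colour gives the group and symbol the array number. Psmd10 is at 9.94 to 10.90 in the 4 arrays to the right and between 9.27 and 9.64 in the other 8, while Psme4 is high in HFD arrays on both sides.

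Psme4 was high in arrays with and without epididymis markers. It stood at 11.86, its highest value, in the 1 5-day array with low epididymis markers, and at 11.50 to 11.80 in 14-day arrays 1 to 3. That 5-day array, number 4, was also the one apart in RNA quality, with a pyruvate carboxylase gap of 2.83 against 1.59 to 2.18 elsewhere. With the covariate its differences were 0.37 and 0.34. Psmb8 differed by −0.31 and −0.50 with the covariate, Psmb9 by −0.30 and −0.44, and Psmb10 by −0.11 and −0.15. Without the 4 arrays Psmb8 differed by −0.27 and −0.48, Psmb9 by −0.33 and −0.39 and Psmb10 by −0.15 and −0.12. The 5-day group was then array 4 alone. Psme4 then differed by 0.51 and 0.31.

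Markers of macrophages and of class II antigen-presenting cells were also lower at 14 days. Fewer cells of a type and less RNA per cell cannot be told apart in such tissue. Of 12 macrophage markers 12 were lower at 14 days, with a median of −0.56, and 11 of 12 at 5 days, with a median of −0.11. Their array means ran from 11.16 to 11.37 in chow, 10.96 to 11.22 after 5 days and 9.93 to 11.05 after 14 days. Of 5 class II antigen-presenting genes, all were lower at both times, with medians of −0.21 and −0.64. At 5 days 0 of these 5 genes and 1 of the 12 macrophage markers, Cd14, had arrays wholly below chow, as did 4.77% of all genes. At 14 days 4 of these 5 and 6 of the 12 did, as did 2.26% of all genes. Their part in the lower immunoproteasome values was not tested.

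Lymphocyte markers gave low signals. Of 10 T and NK cell markers 6 were tested, with medians of −0.03 and −0.04 and array means of 8.48 to 8.70 in chow, 8.47 to 8.70 after 5 days and 8.42 to 8.64 after 14 days, and Cd3g, Cd8b1 and Cd2 lay below the filter. Of 6 B cell markers 3 were tested, with medians of −0.21 and −0.06 and array means from 8.27 to 8.43 in chow, 8.04 to 8.37 after 5 days and 8.13 to 8.53 after 14 days, and Cd79a and Cd79b lay below the filter. Of the 3 tested, 1 had arrays wholly below chow at 5 days and 0 at 14 days, where 4.77% and 2.26% of all genes did. The lymph node stroma was represented by Cxcl13 alone, which differed by −0.56 ± 0.23 and −0.38 ± 0.23. Mesothelium markers, of the covering of visceral fat, were lower in 6 of 6 at both times, with medians of −0.75 and −0.68. Of these, 5 had arrays wholly below chow at 5 days and 1 at 14 days, as did 4.77% and 2.26% of all genes. Endothelium markers were lower in 4 of 7 at 5 days and 7 of 7 at 14 days, with medians of −0.04 and −0.27. Of 9 adipocyte markers 6 were lower at both times, with medians of −0.04 and −0.03. Of the 9, 2 had arrays wholly below chow at 5 days and 0 at 14 days, where 4.77% and 2.26% of all genes did. The part of all these lists in the result was not tested.

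Psmb8 and Psmb9 lie within the major histocompatibility complex, where RefSeq gives the gene order H2-DMa, H2-DMb2, H2-DMb1, Psmb9, Tap1, Psmb8, Tap2, H2-Ob and H2-Ab1. Tap1 and Tap2 encode the 2 chains of the transporter that carries proteasome-made peptides into the endoplasmic reticulum. Tap2 stood at 9.96 to 10.15 in chow, at 9.58 to 9.90 after 5 days, all below chow, and at 9.47 to 9.98 after 14 days, with differences of −0.38 ± 0.11 and −0.31 ± 0.11. Tap1, between both subunits, overlapped chow at both times, with −0.19 ± 0.13 and −0.24 ± 0.13. H2-DMa and H2-Ab1 differed by −0.24 ± 0.16 and −0.22 ± 0.19 at 5 days, where they overlapped chow, and by −0.55 ± 0.16 and −0.68 ± 0.19 at 14 days, where they did not. H2-DMb2, nearer to Psmb9 than H2-DMa, overlapped chow at both times, with −0.31 ± 0.15 and −0.34 ± 0.15. Brd2, on the other side of H2-DMa, differed by −0.10 ± 0.13 and −0.08 ± 0.13.

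Of the 11 genes of class I peptide loading 6 were below 0 at 5 days and 9 at 14 days, with medians of −0.01 and −0.08. By limma 0 were called, with 2 lower at an unadjusted p under 0.05 at each time, where 5.67% and 4.3% of all genes were. Erap1, which trims peptides in the endoplasmic reticulum, stood at 9.80, 9.92, 9.97 and 9.90 in chow, at 9.66, 9.62, 9.70 and 9.79 after 5 days and at 9.71, 9.72, 9.61 and 9.64 after 14 days. All its HFD arrays lay below chow, with differences of −0.20 ± 0.06 and −0.23 ± 0.06. The class I heavy chain H2-D1 differed by −0.11 ± 0.05 at 14 days with overlapping groups.

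Of the 13 interferon signalling genes tested 7 were below 0 at 5 days and 11 at 14 days, with medians of −0.01 and −0.13. By limma 0 were called, with 1 lower at 5 days and 2 lower at 14 days at an unadjusted p under 0.05. Over all genes those shares were 5.67% and 4.3%. Irf1, a transcription factor that drives Psmb9 and Tap1, stood at 11.09 to 11.40 in chow, at 10.84 to 11.14 after 5 days and at 10.79 to 11.20 after 14 days, with differences of −0.29 ± 0.10 and −0.27 ± 0.10 and overlapping groups. Stat2, which relays type I interferon signals, differed by −0.10 ± 0.12 and −0.36 ± 0.12. The receptor gene Ifngr2 differed by −0.13 ± 0.09 at both times and Irf2 by −0.18 ± 0.12. Other genes of the list went the other way. At 5 days 1 of the 13, Jak2, had arrays wholly above chow, as did 6.49% of all genes. None lay wholly below, against 4.77% of all genes. Jak2 differed by 0.11 ± 0.11 and 0.10 ± 0.11 and overlapped chow at 14 days.

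Of 14 proteasome partners that the symbol rule leaves out, 9 were above 0 at 5 days and 13 at 14 days, with medians of 0.01 and 0.09. By limma 0 were called, with 0 at 5 days and 2 higher at 14 days at an unadjusted p under 0.05, against 4.43% and 3.67% of all genes that were higher. Vcp, the segregase that hands substrates to the proteasome, stood at 13.34 to 13.39 in chow, 13.40 to 13.52 after 5 days and 13.42 to 13.55 after 14 days, above chow in both groups, with differences of 0.06 ± 0.04 and 0.12 ± 0.04. The shuttle genes Rad23b and Ubqln1 differed by 0.12 ± 0.05 and 0.10 ± 0.05 at 14 days, and the ligase gene Ube3c by 0.09 ± 0.06.

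Of 7 genes of transcription factors tied to proteasome gene regulation and of proteins that process or restrain them, 6 were below 0 at 5 days and 4 at 14 days, with a median of −0.03 at both. By limma 0 were called, with 1 lower, Nfe2l2, at an unadjusted p under 0.05 at each time, beside 5.67% and 4.3% of all genes. Nfe2l2 (NRF2), an activator through the antioxidant response element, stood at 11.77 to 11.87 in chow, at 11.60 to 11.73 after 5 days and at 11.62 to 11.71 after 14 days, with a difference of −0.15 ± 0.05 at both times and no overlap. Nfe2l1 (NRF1), the main activator of constitutive subunits when proteasome activity is low, differed by −0.01 ± 0.09 and 0.02 ± 0.09. Maff, Mafk and Keap1 differed by −0.25 ± 0.20, 0.05 ± 0.07 and 0.03 ± 0.05 at 14 days.

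Between 14 and 5 days of HFD the members differed little. None of the 46 had groups apart in either direction, against 0.646% of all genes above and 0.278% below, and 0 were called by limma with a lowest adjusted p over all genes of 0.672. At unadjusted p under 0.05 stood 0 members, against 2.55% of all genes, 1.77% higher and 0.789% lower. Psmb8 differed by −0.14 ± 0.12, Psmb9 by −0.07 ± 0.13, Psmb10 by 0.05 ± 0.11 and Psme4 by −0.02 ± 0.07. The constitutive subunits were above 0 in 27 of 31, with a median of 0.05, where 56% of all genes were above 0 and 44% below. Both HFD groups were compared with the same 4 chow arrays, so the 2 sets of differences from chow are not independent. Without 14-day array 2 the 14-day arrays lay wholly above the 5-day arrays in 4 members, and without 5-day array 4 or 14-day array 4 in 1.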

How the data were processed

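RNA of 12 adipose samples was hybridised to single-colour arrays from biotin-labelled RNA, per the labels' protocols. The deposited values were taken as log2 signals, judged from their range of 4.178 to 15.504. How the authors summarised probes and scaled arrays is not given in the sources used here, and nothing was rescaled (medians of 8.087 to 8.143 per array). With arrays it is their number that limits precision. Among 45098 probe sets were 61 controls. Another 34945 name a single gene, 932 name several and 9160 name none. A gene's brightest probe set on average stood for it, and those below the 40th percentile of signal (7.639) were dropped. Probe sets naming several genes were dropped too, except that of Psme2 and Psme2b, which left 13312 genes.

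One model over the 3 groups was fitted in limma 3.58.1 under R 4.3.3 (eBayes with trend, two-sided, Benjamini-Hochberg adjustment over all genes, threshold 0.05), after a check on simulated data. The members, the lists and the tests were chosen with earlier results of these data known. Values in every array were given for the 6 genes singled out, their constitutive partners, Psme3 and the member of each other role with the largest 14-day difference. Up to 4 genes of smallest p at 14 days were named from each pathway list. Psmc2, Psmg3, Cd14, Nfe2l1, Jak2 and genes beside Psmb8 were named outside this rule, with their values known. Alternatives changed the scaling (median centring, quantile normalization), the signal filter (none, 60th percentile), the choice of probe set (their mean), the eBayes trend and the arrays fitted (2 groups, or 1 array fewer), or added a replicate block or a covariate (the mean of the epididymis markers). Groups share replicate numbers, but same-numbered arrays did not deviate together.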

Additional observations from a re-analysis of the deposited data

Results flagged for a closer look

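Within groups of 4 arrays, 3 of the 51 groups examined for the 17 members given array by array had 1 array far from the rest, and chance flags about 1 in 20 groups. Psmb10 stood at 10.26 in 14-day array 4, against 10.70 to 10.78 in the other 14-day arrays. Psmd10 stood at 10.90 in the same array, against 9.43 to 9.61. Psme4 stood at 11.86 in 5-day array 4, against 11.64 to 11.66 in the other 5-day arrays.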

How the results depend on the processing

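Every group holds the same replicate numbers, so using the number as a block cannot change the differences. The median over Psmb8, Psmb9, Psmb10, Psme1 and Psme2 was therefore again −0.28 at 5 days. The block can change the errors, but 0 members were called with it, and it changed no call. Of 12 same-numbered pairs 2 had deviations correlated above 0.1 (range −0.725 to 0.408), so the numbers are not taken to pair samples.

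Leaving out 1 array at a time, the median of these 5 genes ran from −0.32 to −0.24 at 5 days, −0.29 to −0.12 at 14 days and −0.01 to 0.10 between HFD groups, and that of the constitutive subunits from 0.01 to 0.03, 0.01 to 0.10 and −0.01 to 0.09. Members wholly below chow numbered 3 to 7 at 5 days and 2 to 4 at 14 days; those above, 1 to 4 and 3 to 9, and 0 to 4 at 14 against 5 days, counts that cannot drop when an array is left out. Calls of members by limma stayed at 0 in these fits. Over all genes, 123 were called at 5 days and 2 at 14 days without 14-day array 4. Without 14-day array 2 these were 1 and 20, and 0 in the fits without any other single array. Median centring gave 1 member below and 2 above at 5 days. Quantile normalization gave 6 below at 5 days and a constitutive median of −0.02. Averaging the probe sets of each gene gave 2 above at 5 days and 1 below and 0 above at 14 days, and includes dim probe sets: Psmb8 then differed by −0.24 and −0.32 and Psme4 by 0.16 and 0.17. Fitting only the groups compared called 1 member at 5 days, Psme4, among 213 genes, and the epididymis covariate 1, Psme4, among 477. Psme4 was singled out on these same values, so neither call is a test of it. With that covariate the 5-day medians were −0.11 and 0.06 for the 5 genes and the constitutive subunits, Psme1 turned to 0.03 and Psmd10 to −0.16. Without the 4 epididymal arrays, an alternative chosen after seeing the data, they were −0.15 and 0.06, Psme1 was 0.02 and Psmd10 −0.21; the lone 5-day array is assumed to vary like the others. The cause was not tested. With 4 arrays a group, SEs of 0.05 to 0.13 for constitutive subunits limit what could be seen.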

Other observations

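Other tissue lists also differed between arrays. The mean of 8 liver markers ran from 7.87 to 12.05 in chow, 9.15 to 13.34 after 5 days and 8.86 to 12.85 after 14 days. That of 7 skeletal muscle markers was highest in a chow array, number 3 (12.80), followed by 5-day array 2 (12.50), with 8.32 to 9.36 elsewhere. That of 6 smooth muscle markers ran from 9.84 to 10.51 in chow, 9.80 to 12.10 after 5 days and 9.39 to 13.71 after 14 days.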
